A study of Homo sapiens with 6 samples.

Results

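The regions described here are the H3K9me3 peaks beside the centromeres of 18 human chromosomes, namely 3 to 8, 11 to 15, 17 to 22 and X. A peak was included when its midpoint lay within 2 Mb of the centromere gap of its chromosome in the hg19 assembly. By this rule 352 of the 2826 peaks in 3 deposited lists were members, with 244 in the control, 40 after 6 h and 68 after 24 h of TGF-β1. The rule used position only, and no measured value of a peak. Chromosomes 1, 2, 9, 10 and 16, many of which carry a long satellite block next to the centromere, were not in the rule and serve below as the nearest group for comparison. Their windows also took in that block where there was one, with 2 Mb beyond it. Control peaks there lay up to 19995 kb from the gap, so the windows were not alike in length.

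The study profiled H3K9me3 by chromatin immunoprecipitation and sequencing (ChIP-seq) in PC-3, an established prostate cancer cell line. All cells were deprived of serum for 24 h. The control cells then received nothing, and the treated cells received TGF-β1 at 5 ng/mL for 6 h or for 24 h. According to the labels the cytokine was dissolved in citric acid, and no control with citric acid alone is described. Each condition had 1 ChIP library and 1 input library, so a difference between conditions has no replicate error and is given here without a test.

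Trimethylation of histone H3 at lysine 9 is written at pericentromeres mainly by the SUV39H enzymes and is bound by HP1 proteins, which hold the chromatin compact. Human centromeres are built on alpha satellite, a tandem repeat, and are flanked by other satellites and by segmental duplications. In hg19 most of this repeat DNA is replaced by a gap of placeholder length, and the peaks here lie in the sequence at its edges. Reads from many satellite copies of the cell can pile up on the few copies that the assembly holds, in the ChIP and in the input alike. TGF-β1 is a secreted cytokine known for moving epithelial tumour cells towards a mesenchymal state.

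Some features of the lists touch every result below. Peak names in both treated lists carry a word for filtered alignments, in 1220 of 1220 peaks at 6 h and 272 of 272 at 24 h, and names in the control list do not (0 of 1334). The lists may therefore not have been made alike. The PC-3 line is known to lack a Y chromosome, yet chromosome Y held 97 control peaks, 0 peaks at 6 h and 8 at 24 h. The source of that DNA was not tested, and peak lists hold no other check of the cells. Intervals given with shares are exact 95% (Clopper-Pearson) intervals. They hold for counting error alone, and peaks next to each other are not independent.

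Pericentromeric peaks made up 18.3% of the control list (244 of 1334, interval 16.3 to 20.5). At 6 h they made up 3.28% (40 of 1220, 2.35 to 4.44), and at 24 h 25% (68 of 272, 19.97 to 30.6). They covered 82.6 kb in the control, 15.7 kb at 6 h and 21.9 kb at 24 h. The 6 h list was thus nearly as long as the control list but held the fewest pericentromeric peaks, and the short 24 h list held the largest share of them, with an interval that just overlapped that of the control. Outside these windows and those of chromosomes 1, 2, 9, 10 and 16 the order of the counts was another, with 917, 1152 and 125 peaks. Chromosome Y had no window, so its 97, 0 and 8 peaks are among them. Around the centromeres of chromosomes 1, 2, 9, 10 and 16 there were 173 peaks in the control list, 28 after 6 h and 79 after 24 h, so that 6 h was lowest there too. When only peaks with −log10 q values from 5 upwards were taken, where q is the caller's p-value adjusted over the list, the shares were 32.5%, 12.04% and 36.6%. With each list reduced to its 272 peaks of highest −log10 q, they were 40.4%, 6.25% and 25%, so that the control share was then the largest.

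The chromosomes differed widely in number of peaks. Chromosome 4 held the most in the control list, with 44 peaks, and had 0 after 6 h and 3 after 24 h. Chromosome X followed with 33, 0 and 6, and chromosome 8 with 29, 6 and 13. Chromosome 7 held 22, 2 and 6. On chromosome 21 the counts were 20, 5 and 8, on chromosome 5 they were 17, 1 and 4, and on chromosome 17 they were 15, 1 and 5. At the low end, chromosome 13 held 1, 0 and 1 peaks, chromosome 14 held 2, 1 and 1, and chromosome 22 held none in any list. The control count was above the 6 h count in 16 of 18 windows and equal to it in the other two, chromosomes 6 and 22. At 24 h the count exceeded that at 6 h in 11 windows and was below it in 4, chromosomes 3, 6, 15 and 20. Chromosome 15 held 10 control peaks, 5 at 6 h and 0 at 24 h, an order unlike that of the pooled windows.

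**Figure D1:**
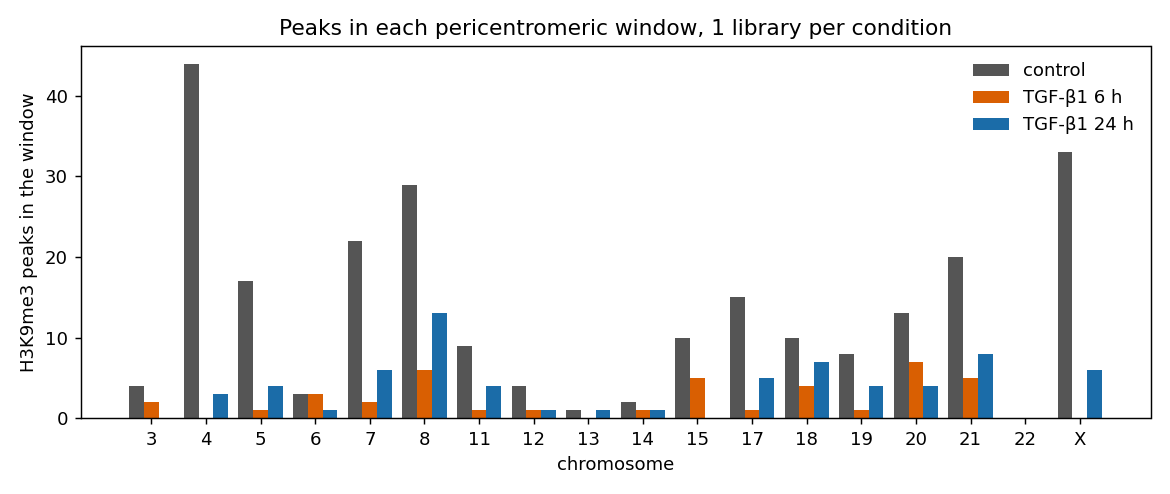
Number of H3K9me3 peaks in the pericentromeric window of each chromosome (y axis, count) for the control, 6 h and 24 h lists, 1 library each. Chromosomes 4 and X show 44 and 33 control peaks and none at 6 h, and chromosome 22 shows none in any list.

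Control and 24 h peaks sat close to the centromere gap, and 6 h peaks sat mostly further out. The median distance to the gap was 81.8 kb in the control, 785 kb at 6 h and 56.0 kb at 24 h. Within 100 kb of the gap lay 137 of 244 control peaks (56.1%, 49.7 to 62.5), 8 of 40 at 6 h (20%, 9.05 to 35.6) and 46 of 68 at 24 h (67.6%, 55.2 to 78.5). Within 10 kb the counts were 25, 0 and 7. On some arms no list had a peak so near. The nearest peak of any list lay 50.4 kb out on the long arms of chromosomes 18 and 19, and 51.2 kb on that of X. On the short arms of chromosomes 20 and 6 the nearest, at 51.3 and 52.3 kb, was a 6 h peak. The 6 h list also had peaks at 52.1 kb on chromosome 18 and 52.6 kb on chromosome 19. Whether assembled sequence starts only there was not tested, so distances may not be alike between arms. The density of control peaks declined outwards, from 1370 per Mb of distance in the first 100 kb to 22 per Mb between 1 and 1.5 Mb. For 24 h peaks these densities were 460 and 4 per Mb. Peaks at 6 h were also densest at the gap, with 80 per Mb in the first 100 kb. Their density was 10 per Mb from 0.1 to 0.5 Mb, 30 from 0.5 to 1 Mb and 14 from 1 to 1.5 Mb. Outside the windows, from 2.5 to 5 Mb, it was 12.8 per Mb. Just inside the 2 Mb limit, from 1.5 to 2 Mb, there were 8, 6 and 3 peaks, and just outside it, from 2 to 2.5 Mb, 1, 5 and 1. Pooled over chromosomes with peaks possible on both sides, 54.5% of control peaks, 61.8% of 6 h peaks and 50% of 24 h peaks lay on the short arm. Single chromosomes leaned to opposite arms. Control peaks on the short and long arm numbered 40 and 4 on chromosome 4, 14 and 1 on 17, and 20 and 0 on 21. On chromosome 5 they numbered 1 and 16, on 7 they numbered 3 and 19, and on X 5 and 28. Chromosome 8 was more even, with 17 and 12.

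**Figure D2:**
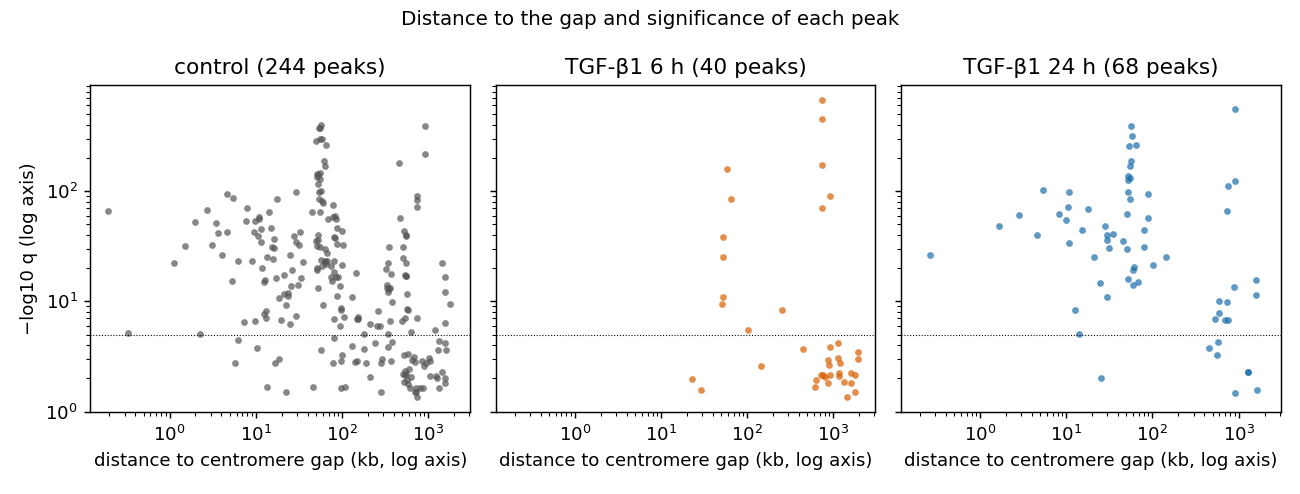
Each pericentromeric peak by its distance to the centromere gap (x axis, kb, log scale) and its −log10 q (y axis, log scale), 1 panel per list, with a dotted line at a −log10 q of 5. In the control and at 24 h most peaks lie within 100 kb of the gap and above the line, and at 6 h 27 of 40 peaks lie below the line.

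The caller's values told the lists apart further. Fold is the caller's own ratio of ChIP pileup to local background at the summit of a peak, and a difference of folds between lists is no measure of a change in the mark. Its median over pericentromeric peaks was 3.14 in the control (quartiles 2.54 and 3.94), 3.36 at 6 h (2.04 and 4.06) and 2.63 at 24 h (2.02 and 3.35). The medians of the whole lists were higher, at 3.83, 4.10 and 3.09. By contrast, −log10 q was higher at pericentromeres than in the whole lists. Its medians were 15.6, 2.86 and 34.5, against 3.68, 2.42 and 10.7. A −log10 q of at least 5 was reached by 179 of the 244 control peaks (73.4%), 13 of the 40 at 6 h (32.5%) and 60 of the 68 at 24 h (88.2%).

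Low folds with high significance belong to peaks with much signal on both sides of the ratio. The pileup (fragments over the summit) and the local background were solved from the deposited fold and −log10 p, and are given as multiples of the lowest background of the same list, called its genome-wide background. The median local background of pericentromeric peaks was 17.7 times this level in the control list, 2.99 times after 6 h and 38.5 times after 24 h. Over the peaks outside both sets of windows, chromosome Y included, it was 1.36, 1.40 and 1.68 times. In the comparison group of chromosomes named at the outset it was 19.7, 217 and 82.6 times. That was near the members in the control and above them at 6 h and 24 h. High local background was therefore not particular to the members. A local background of 10 times or more was found at 154 of 244 control members (63.1%). At 6 h it was found at 13 of 40 (32.5%) and at 24 h at 53 of 68 (77.9%). In the comparison group the shares were 65.3%, 78.6% and 88.6%. The 6 h members fell into separate groups, with 11 at 100 times or more and a median fold of 1.91. There were 2 between 10 and 100 times, and 27 under 10 times with a median fold of 3.90. Those 27 had a median −log10 q of 2.16 and lay a median of 926 kb from the gap. The median pileups of the control, 6 h and 24 h members were 51.1, 11.6 and 105 times that level.

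Overlap between lists was counted from at least 1 bp in common. Of the control members 51 of 244 overlapped a 24 h peak (20.9%, 15.98 to 26.5), where the share over the whole control list was 9.82%. The control members that overlapped a 6 h peak numbered 13 of 244 (5.33%, 2.87 to 8.94), against 5.02% over the whole list, so that this share was near that of all control peaks. Seen from the treated lists, 52 of 68 members at 24 h overlapped a control peak (76.5%, 64.6 to 85.9, whole list 51.5%) and 12 of 68 a 6 h peak (17.6%, 9.46 to 28.8, whole list 17.3%). At 6 h 13 of 40 members overlapped a control peak (32.5%, 18.6 to 49.1, whole list 5.25%) and 12 of 40 a 24 h peak (30%, 16.6 to 46.5, whole list 3.77%). Around the centromeres of chromosomes 1, 2, 9, 10 and 16 each of these shares was higher than in the members. There 68 of 79 peaks at 24 h overlapped the control (86.1%, 76.5 to 92.8) and 23 of 79 a 6 h peak (29.1%). At 6 h 22 of 28 overlapped a control peak (78.6%) and 22 of 28 a 24 h peak (78.6%). Of the control peaks there 61 of 173 overlapped a 24 h peak (35.3%) and 22 of 173 a 6 h peak (12.7%). With 1 library per condition the differences from the members were not tested. Overlapping peaks lay nearly on top of each other. The summits of control and 24 h peaks were a median of 15 bp apart over 52 pairs, and those of control and 6 h peaks 8 bp apart over 13 pairs.

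Among the members overlap went with the significance of the peak. The steps below were not counted over the whole lists, so the pattern is not shown to be particular to pericentromeric peaks. Of control members with a −log10 q under 5, 0 of 65 overlapped a 24 h peak (upper bound 5.52%). Between 5 and 20 it was 7 of 75 (9.33%), between 20 and 50 it was 13 of 56 (23.2%), and at 50 or more it was 31 of 48 (64.6%, 49.5 to 77.8). For the 6 h list the same steps gave 0 of 65, 1 of 75, 3 of 56 and 9 of 48 (18.75%, 8.95 to 32.6). In the 24 h list 1 of 8 members under 5 overlapped the control, and at 50 or more 24 of 25 did (96%, 79.6 to 99.9). Among the 6 h members 1 of 27 under 5 did so and 12 of 13 at 5 or more. The 6 h peaks with no counterpart were therefore mostly close to the caller's threshold. Control peaks at 50 or more also had the highest local background, with a median of 99.8 times, against 2.72 times in those under 5. Significance and local background cannot be told apart here.

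**Figure D3:**
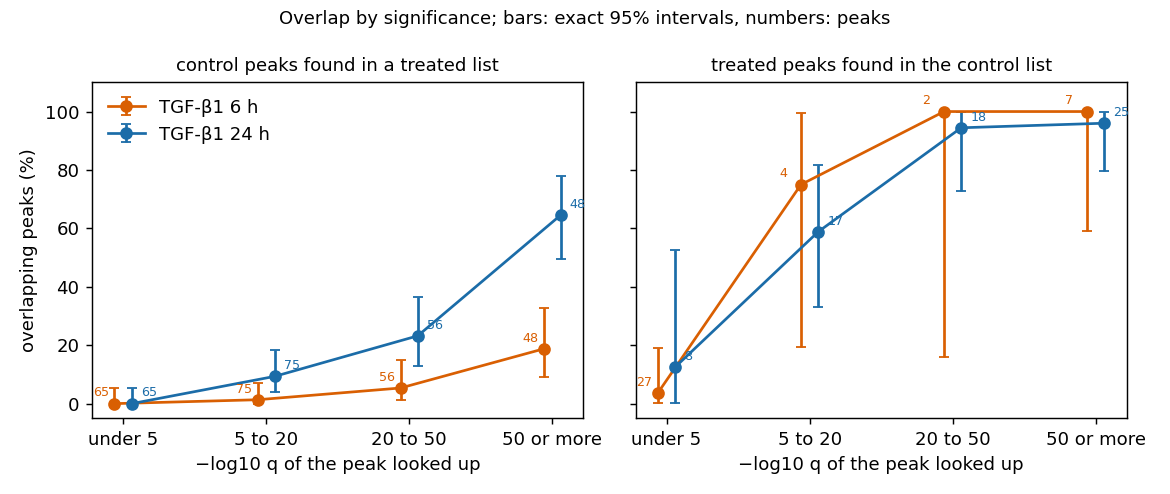
Share of pericentromeric peaks that overlap a peak of another list (y axis, percent) by the −log10 q of the peak looked up (x axis), with exact 95% intervals as bars and numbers of peaks beside the points. The share of control peaks found at 24 h goes from 0 of 65 in the lowest step to 31 of 48 in the highest, and for 6 h from 0 of 65 to 9 of 48.

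Merged over the lists, the members formed 287 regions. The control alone held 192 of these (66.9%, against 45.0% of the 2614 regions of the series), 6 h alone 27 (9.41%, against 44.1%) and 24 h alone 16 (5.57%, against 4.86%). A further 39 regions were held by the control and 24 h (13.6%, against 3.44%) and 12 by all lists (4.18%, against 1.61%). The control and 6 h shared 1 region (0.348%, against 0.842%), and 6 h and 24 h without the control shared 0 (against 0.153%). The 39 regions of control and 24 h were 43.3% of the 90 such regions in the series, and the 27 regions of 6 h alone were 2.34% of 1152. Regions of control and 24 h lay a median of 31.7 kb from the gap and those in all lists 61.5 kb. Regions of the control alone lay at 101 kb, of 24 h alone at 643 kb and of 6 h alone at 926 kb. Within 100 kb of the gap lay 35 of the 39 regions of control and 24 h and 7 of the 12 in all lists, but also 95 of the 192 of the control alone.

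Most peaks of the control and 24 h lists stood in dense clusters. A cluster is a chain of at least 6 peaks from any list, each within 100 kb of the next. There were 16 such clusters on 11 chromosomes, 10 of them within 100 kb of a gap. They held 179 control peaks (73.4%), 10 at 6 h (25%) and 50 at 24 h (73.5%). Since 15 of the 16 had at least 6 control peaks, their definition leaned on the control list. In 9 clusters there were control and 24 h peaks but none at 6 h, in 5 there were peaks of all lists, 1 had control and 6 h peaks, and 1 had control peaks only. Of the 50 clustered 24 h peaks 46 overlapped a control peak, and of the 18 unclustered ones 6 did.

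**Figure D4:**
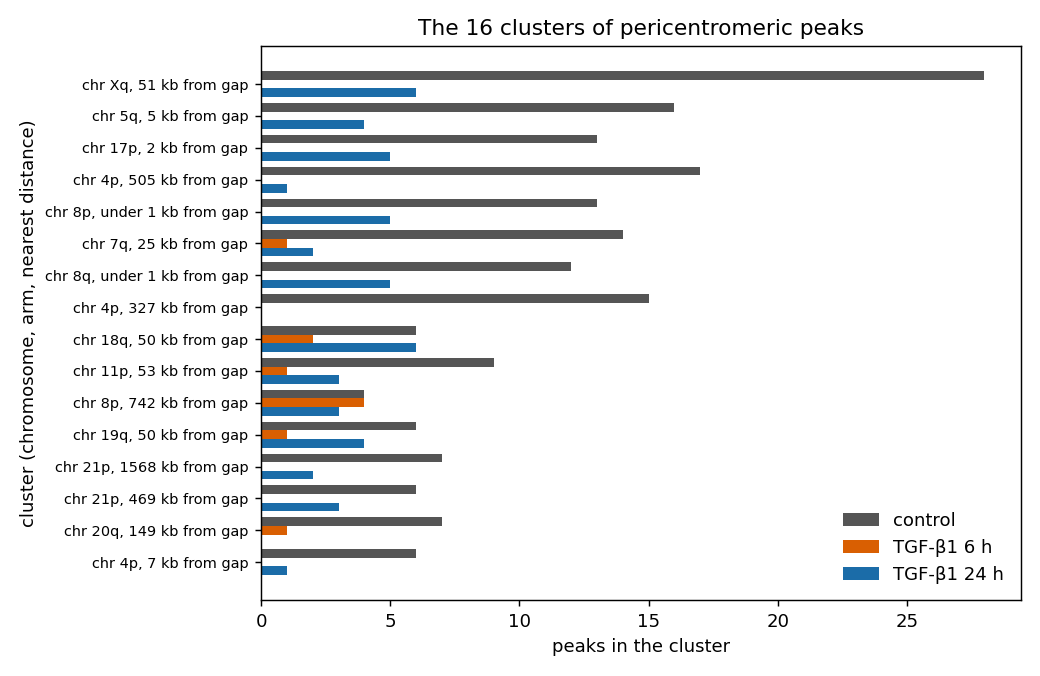
Number of peaks from each list (x axis, count) in the 16 clusters, labelled by chromosome, arm and distance to the gap and ordered by total number of peaks. The X long arm cluster has 28 control peaks, 6 at 24 h and none at 6 h, and 9 clusters share the pattern of control and 24 h peaks without 6 h peaks.

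The largest cluster, on the long arm of chromosome X from 61683061 to 61734228, spanned 51.2 kb and began 51.2 kb from the gap. Its 28 control peaks had folds from 2.12 to 5.35 and local backgrounds from 9.43 to 104 times, with a median of 21.9. Successive control summits were a median of 1312 bp apart. The 24 h list had 6 peaks there, and 5 of them overlapped control peaks. The 24 h peak of highest fold, from 61687316 to 61687546, had a fold of 5.03, a pileup of 143 times and a local background of 28.3 times. In the control the overlapping peak had a fold of 4.11, a pileup of 245 times and a background of 59.2 times. Both quantities were lower at 24 h there on the scale of each list, with the background lower by more than the pileup. The sixth 24 h peak, from 61720880 to 61721079, had no control peak under it (fold 3.14, −log10 q 93.7). It had the highest −log10 q of the 16 regions held by 24 h alone, in the midst of the control cluster.

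Several other clusters lay at the very edge of a gap. On chromosome 8 a cluster of the short arm from 43793769 to 43838899 began 0.192 kb from the gap and held 13 control peaks and 5 at 24 h. Across the same centromere a cluster of the long arm from 46839060 to 46868631 began 0.329 kb from the gap and held 12 and 5. Control folds ranged from 2.55 to 4.68 in the first and from 1.79 to 3.89 in the second. The chromosome 17 cluster from 22245585 to 22261650 had 13 control peaks with folds from 1.94 to 4.71, and 5 at 24 h with folds from 1.80 to 3.82. The chromosome 5 cluster from 49410150 to 49441002 had 16 control peaks (folds 2.42 to 4.32) and 4 at 24 h (folds 2.61 to 4.09). In these 4 clusters all 19 peaks at 24 h overlapped a control peak and no 6 h peak was listed.

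On the short arm of chromosome 4 the cluster nearest the gap, from 49634690 to 49652843, held 6 control peaks, 0 at 6 h and 1 at 24 h, which overlapped the control. The other two of this arm lay further out. The one from 49093910 to 49155764, 505 kb from the gap, held 17 control peaks with low folds (1.57 to 2.57) on local backgrounds from 19.4 to 301 times, and 1 peak at 24 h. A neighbouring cluster from 49280724 to 49333594 held 15 control peaks with higher folds (2.097 to 6.64) on lower backgrounds (3.06 to 28.9 times) and no peak in either treated list. Its last peak, from 49333378 to 49333594, had the fold of 6.64, which was the second highest of the control members. Between those clusters and the gap the 24 h list had a peak of its own from 49514501 to 49514698, with a fold of 5.10 on a background of 5.22 times.

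On chromosome 7 the cluster from 61079160 to 61243381 held 14 control peaks, 1 at 6 h and 2 at 24 h. Its control backgrounds ranged from 1.00 to 54.7 times. It contained 3 of the 6 control members of highest fold, from 61207674 to 61208045 (6.23), from 61161456 to 61161683 (6.23) and from 61209374 to 61209579 (5.42). None of these overlapped a treated peak, and their pileups were between 9.01 and 10.6 times the genome-wide background. The highest fold of any control member, 9.00, was on chromosome 19 from 24618382 to 24618673, with a pileup of 20.1 times on a background of 1.76 times. It too had no counterpart in the treated lists. High fold at these peaks went with low background.

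The members of highest −log10 q stood at the other end, with much larger pileups. On chromosome 11, between 51579421 and 51591331, the control list had 9 peaks with folds of 2.93 to 4.18, and 24 h had 3. The control peaks from 51586774 to 51587049 (−log10 q 394, pileup 722 times, background 172 times) and from 51588808 to 51589095 (375, 710 and 174 times) had no 24 h or 6 h counterpart. The peak from 51590354 to 51590632 had one at 24 h (fold 3.57 in the control and 2.47 at 24 h, pileup 831 and 723 times). Over the whole cluster the 3 control peaks with a 24 h counterpart had pileups of 563 to 831 times, and the 6 without had 179 to 722 times, so the ranges overlapped. On the long arm of chromosome 7 the control peak from 61970250 to 61970546 had a −log10 q of 388 and a fold of 3.77. The overlapping 24 h peak, from 61970279 to 61970523, had the highest −log10 q of the 24 h members (554) and a fold of 3.19, and 6 h had no peak there.

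The chromosome 18 cluster from 18511060 to 18520323 had as many 24 h peaks as that of chromosome X, with 6 in the control list, 2 after 6 h and 6 after 24 h. All 6 of the 24 h peaks overlapped control peaks. The control peak from 18518843 to 18520323 was 1481 bp wide with a fold of 2.17 and a pileup of 1546 times. At 6 h the peak there had a fold of 1.75 and a pileup of 1664 times, and the stronger of the pair of peaks at 24 h had 1.87 and 1722 times. The control peak from 18516893 to 18517747 was met by a 24 h peak from 18517125 to 18517735 with nearly equal values (fold 2.29 and 2.25, pileup 1374 and 1336 times, background 600.4 and 594 times).

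The 12 regions held by every list had local backgrounds of 17 times or more in each list, although many regions of higher background were not in every list. In the 6 h list the fold was below that of the control at 9 of the 12, and at these the 6 h background was the higher. Over the 12 regions the ratio of 6 h to control background had a median of 1.49, and that of the pileups 0.834 (from 0.568 to 1.19). On chromosome 11 from 51579421 to 51579678 the folds of the control, 6 h and 24 h peaks were 3.20, 1.94 and 2.37. Pileup there was 681, 661 and 808 times and background 212, 341 and 341 times. The control and 6 h pileups were thus almost equal while the background was not. On chromosome 19 from 27734211 to 27734571 the folds were 2.99, 1.91 and 2.38, with pileups of 335, 330 and 420 times and backgrounds of 112, 173 and 176 times. On chromosome 7 the region from 61968768 to 61969666 had folds of 1.93, 1.502 and 1.45 and pileups of 1533, 1718 and 1822 times. The part of this higher background in the low number of 6 h peaks was not tested.

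The exceptions were on the short arm of chromosome 8, where 11 peaks of all lists crowded into 4.17 kb, from 43092869 to 43097041, 742 kb from the gap. This was the sole cluster with 4 peaks at 6 h, beside 4 in the control and 3 at 24 h. The region from 43092869 to 43093279 had folds of 1.22, 2.18 and 1.32 in the same order of lists. Its pileup was 5687, 3810 and 2860 times and its background 4659, 1750 and 2168 times, the highest backgrounds among the members in each list. The 6 h peak there had the highest −log10 q of all 352 members (673). The region from 43096542 to 43097041 had folds of 1.496, 2.52 and 1.65, with backgrounds of 867, 292 and 346 times. A 6 h peak from 43094761 to 43095253 (fold 1.98) overlapped a control peak of fold 1.24 and none at 24 h, and formed the 1 region held by the control and 6 h alone. Over the 4 pairs of control and 6 h peaks on chromosome 8 the pileup ratio was 0.568 to 0.670.

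**Figure D5:**
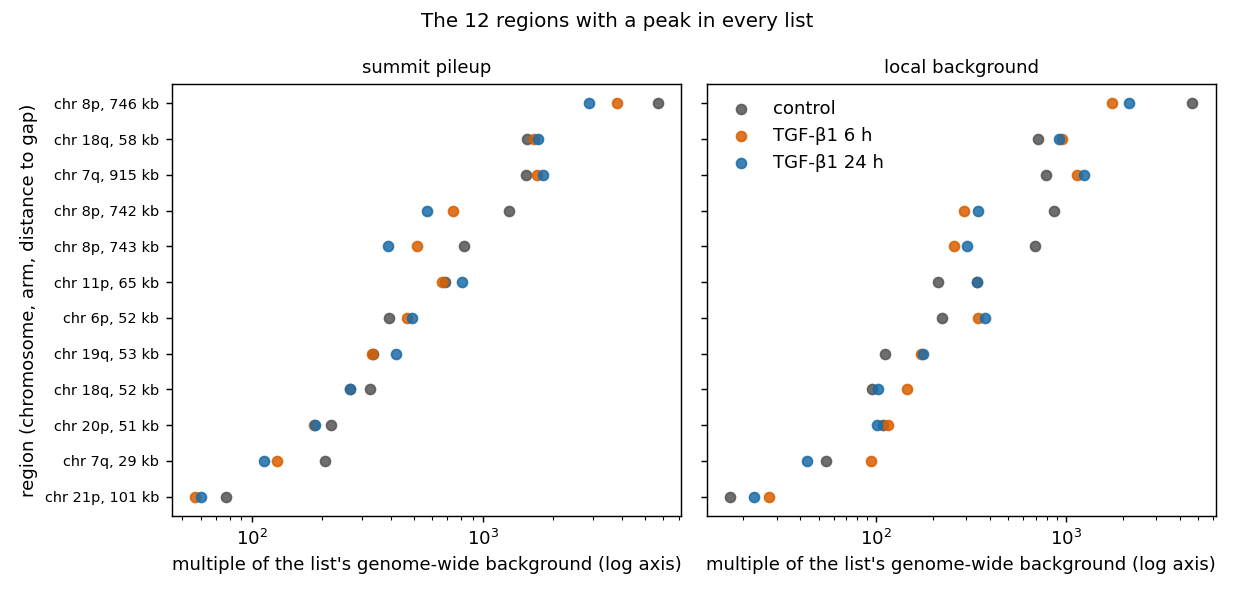
Summit pileup (left) and local background (right) of the 12 regions with a peak in every list, as multiples of the genome-wide background of each list (x axes, log scale), 1 row per region and 1 point per list. The control point lies furthest right in both panels for the 3 regions of chromosome 8 about 740 kb from the gap, and left of the 6 h point in the background panel for the other 9.

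Paired control and 24 h peaks differed between chromosomes on the same scale. Each control peak was paired with the 24 h peak of nearest summit. Over 51 pairs the ratio of 24 h to control had a median of 0.854 for the pileup (from 0.254 to 1.27) and 0.974 for the background. All 13 pairs on chromosome 8 had the lower pileup at 24 h, with a median ratio of 0.582 (0.361 to 0.938). On chromosome X 4 of 5 pairs did, with a median of 0.586. The 5 pairs of chromosome 17 had a median of 0.900, the 5 of chromosome 18 0.973, the 4 of chromosome 19 1.07 and the 4 of chromosome 7 1.11. Only regions that passed the caller in both lists enter these ratios, and each scale rests on the lowest background of its list. The chromosomes are not replicates, and the difference between them was not tested.

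Regions held by 6 h alone were mostly close to the threshold, with a −log10 q of 5 or more in 1 of 27, and those of 24 h alone reached it in 9 of 16. Of the 27 regions of 6 h alone, the highest −log10 q, 8.30, belonged to the chromosome 20 peak from 29621660 to 29622018 (fold 3.30, pileup 29.6 times). It lay inside a control cluster without touching a control peak. The next were on chromosome 8 from 42697127 to 42697392 (fold 5.42, −log10 q 4.24, the highest fold of the 6 h members), on chromosome 18 from 14534769 to 14534994 (fold 4.35) and on chromosome 20 from 25929827 to 25930108 (fold 4.56). Their pileups were 8.11, 11 and 9.85 times the genome-wide background. At 24 h the highest fold of the members, 7.58, was on chromosome 20 from 26302304 to 26302515, 67.2 kb from the gap, with a pileup of 11.3 times on a background of 1.16 times. No other list had a peak there.

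Wide peaks were rare, with 6 of 244 control members, 1 of 40 at 6 h and 1 of 68 at 24 h reaching 1000 bp. These peaks were chosen for description after their values had been seen. The widest in each list was the same region on chromosome 6, from 58776310 to 58779428. It was 3119 bp wide in the control list, 2984 bp after 6 h and 2960 bp after 24 h, with folds of 1.76, 1.35 and 1.32. On the short arm side of chromosome X the control list held 5 peaks, none of them overlapping a treated peak. Of these, 3 were of almost equal width, from 58568243 to 58570008 (1766 bp), from 58572353 to 58574103 (1751 bp) and from 58578516 to 58580281 (1766 bp). Their starts were 4110 and 6163 bp apart, which is 2 times 2055 bp and 3 times 2054 bp, and their summits lay 707, 714 and 718 bp from their starts. The alpha satellite array of chromosome X is known for a repeat unit of about 2 kb. Whether these peaks lie in such repeats was not tested, since no sequence of this build was used.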

How the data were processed

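The submitters' processing notes name the build hg19 (GRCh37) and the tools MACS2 2.1.1.20160309 for peaks, BWA, Trimmomatic and, for read quality, FastQC 0.11.9. The threshold of peak calling, like the use of the input, was not given in the sources used here. The authors deposited 1 peak list per ChIP library, with start and end, a score (10 times −log10 q), fold as a linear ratio, −log10 p, −log10 q and summit offset. Library depth is not given by the lists. Pileup and local background were solved from the deposited fold (pseudocount 1) and −log10 p under a Poisson model. Tested on simulated data, the solver recovered 975 of 975 peaks. Some members had backgrounds above the simulated range, up to 8794 fragments in the control on chromosome 8, and recovery there was not tested. Of the solved pileups 99.5% (control), 99.5% (6 h) and 96.7% (24 h) were whole within 0.05 fragments, where 10% would be by tolerance alone. Control pileups of 10304.8, 1556.18 and 2449.07 fragments in the chromosome 8 cluster 742 kb from the gap were not whole. The genome-wide background was 1.89, 1.73 and 2.66 fragments.

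Python 3.11.15, pandas 2.3.3 and scipy 1.17.1 were used. Intervals are exact 95% intervals. Gap positions were entered from general knowledge of hg19. Positions are 1-based. Named regions are the largest clusters, the 6 members of highest fold and of highest −log10 q in each list, and the regions of highest summed −log10 q in each class. Members and rules were chosen with earlier results of these data known. Peaks were given no gene and no sequence, because the reference tables were of build GRCh38.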

Additional observations from a re-analysis of the deposited data

How the results depend on the processing

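Of 104 alternative values 70 stayed within the interval or limit set for them and 34 moved. All were shares, counts or medians of positive quantities, so a change of sign was not possible. Some moves follow from the setting itself, as said below, and the cause of the others was not tested. With peaks of −log10 q from 5 upwards only, the windows held 32.5%, 12.04% and 36.6% of the control, 6 h and 24 h lists. There, 27.9% of control members overlapped a 24 h peak, 92.3% of 6 h members a control peak and 84.6% a 24 h peak, and regions of 6 h alone numbered 1 and of 24 h alone 9. The control medians were then 23.3 for −log10 q and 27.2 for local background, and those at 6 h were 1.94 (fold), 70.1 (−log10 q), 411 bp (width) and 292 (background). The higher −log10 q medians were fixed by this cut, which removed the lowest values. With lists of equal size the windows held 40.4% of the control, 6.25% of the 6 h and 25% of the 24 h list, which turned the order of control and 24 h. Of control members 40% then overlapped a 24 h and 10% a 6 h peak, and of 6 h members 64.7% overlapped each other list. Regions then numbered 65 for control alone, 5 for 6 h alone and 1 for 6 h and 24 h.

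Counting peaks within 5 kb as overlapping gave 45.5% (control with 24 h), 11.9% (control with 6 h) and 32.4% (24 h with 6 h), and merging within 5 kb left 80 control-only and 14 control and 24 h regions. With the members of the acrocentric chromosomes left out, the control share was 15.8%, and it was the same with those of chromosome X left out. Each of these groups held 33 control members. The share was still taken of all 1334 control peaks, so it could only fall. The 6 h share was 2.21% within 1 Mb and 6.31% within 5 Mb of gaps. Clusters built on the 6 h list alone numbered 0 and on the 24 h list alone 2. No paired analysis was possible because there was a single ChIP library for each condition. Library depth is not known from the lists. A region under the caller's threshold leaves no value, and its absence does not show that the mark was absent.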
